A study of Mus musculus with 16 samples.

Results

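The genes described here are 9 genes that mark mast cells: the chymases Cma1 and Mcpt4, the carboxypeptidase Cpa3, the tryptases Tpsb2 and Tpsab1, the IgE receptor subunits Fcer1a and Ms4a2, the histidine decarboxylase gene Hdc and the growth factor receptor gene Kit. They were taken by symbol: every probe set (a group of oligonucleotides that reports 1 transcript) whose only gene symbol in the platform annotation was one of these names was used. This gave 13 of 45037 probe sets and 9 of 18193 named genes. Tpsb2, Ms4a2, Hdc and Kit had 2 probe sets each and the other 5 genes had 1.

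Mast cells are tissue-resident immune cells that settle in the dermis, and they are told from other skin cells by granules filled with proteases and histamine bound to the proteoglycan serglycin. IgE held on their surface by the high affinity receptor FcεRI (alpha chain Fcer1a, beta chain Ms4a2, gamma chain Fcer1g) triggers granule release when an antigen links it, and stem cell factor acting on the receptor Kit keeps the cells alive. In skin wounds they are known for early mediator release and for chymase and tryptase acting on matrix and fibroblasts.

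The series compared wild-type C57BL/6 mice carrying an incisional wound on the back, with the wound either stretched by mechanical load (stressed) or left without load (unstressed). The 4 groups were stressed wounds at day 14, after 10 days of loading, unstressed wounds at day 14, stressed wounds at day 6, after 48 hours of loading, and unstressed wounds at day 6. Each group held 4 arrays from 4 mice of the series design, so n = 4 in every group. The labels cite a published mouse model of hypertrophic scarring for the loading, and whole wound tissue was taken. In such tissue, fewer cells of a type and less RNA per cell cannot be told apart.

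The deposited values were on a log scale, read here as log2, and each probe set was centred around 0. A value of 0.5 is therefore 0.5 log2 units above that probe set's own centre, and the values say nothing about how strongly a gene was expressed, whether it was detected, or which of 2 genes was more abundant. Whether the mast cell markers were near background in these wounds could not be judged. All mice were labelled female, but the arrays went against that label in part. Xist, the RNA of the inactive X chromosome, lay between 5.98 and 6.30 in 4 arrays and between -0.53 and 0.81 in the other 12, and the mean of 3 Y-linked genes ran the opposite way, from -3.97 to -3.53 in the 4 and from -0.99 to 0.74 in the 12. The 4 arrays with high Xist were replicates 3 and 4 of both day 14 groups, so loading at day 14 was balanced over this split, whereas every day 6 array was on the low side. Results are given with and without those arrays where they differ.

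The promoters of Cma1, Mcpt4, Cpa3 and Fcer1a are shown because these 4 genes had the largest mean loading differences over both days. Promoter sequence, from 250 bases before to 50 bases after the transcription start, was found in RefSeq (GRCm38.p6) for 7 of the 9 genes, and Tpsb2 and Tpsab1 were not among them. The letters GATAA, the core recognised by GATA factors, were searched on both strands, the other strand reading TTATC, and are in capitals below. They occurred in 5 of the 7 genes, those of Cma1, Mcpt4, Cpa3, Fcer1a and Ms4a2, and in neither Hdc nor Kit, against 25.4% of 32851 promoters of the same length. The E-box letters CANNTG occurred in 5 of the 7, against 72.3% of all promoters. A match in this window is a description and does not show binding. The 4 promoters below are read 5′ to 3′ on the minus strand, at chr14:55944626-55944925 for Cma1, chr14:56062261-56062560 for Mcpt4, chr3:20242132-20242431 for Cpa3 and chr1:173227180-173227479 for Fcer1a, and their first GATAA letter lies at -194, -102, -45 and -92 from the start in the same order.
Cma1: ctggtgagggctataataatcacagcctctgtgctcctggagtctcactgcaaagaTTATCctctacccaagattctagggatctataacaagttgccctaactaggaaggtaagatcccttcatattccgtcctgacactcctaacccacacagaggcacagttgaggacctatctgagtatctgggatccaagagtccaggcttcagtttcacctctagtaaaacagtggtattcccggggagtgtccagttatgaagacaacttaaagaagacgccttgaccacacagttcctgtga
Mcpt4: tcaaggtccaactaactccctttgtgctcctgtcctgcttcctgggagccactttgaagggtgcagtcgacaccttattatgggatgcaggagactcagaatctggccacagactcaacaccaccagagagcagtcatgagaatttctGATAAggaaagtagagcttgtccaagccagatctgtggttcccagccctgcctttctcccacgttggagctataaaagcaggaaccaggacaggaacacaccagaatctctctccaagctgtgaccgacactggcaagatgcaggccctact
Cpa3: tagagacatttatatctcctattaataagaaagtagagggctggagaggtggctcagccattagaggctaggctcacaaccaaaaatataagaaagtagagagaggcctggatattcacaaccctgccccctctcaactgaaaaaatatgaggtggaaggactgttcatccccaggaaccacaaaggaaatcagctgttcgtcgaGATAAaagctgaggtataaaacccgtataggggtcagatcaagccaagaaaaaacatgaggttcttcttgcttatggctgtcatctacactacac
Fcer1a: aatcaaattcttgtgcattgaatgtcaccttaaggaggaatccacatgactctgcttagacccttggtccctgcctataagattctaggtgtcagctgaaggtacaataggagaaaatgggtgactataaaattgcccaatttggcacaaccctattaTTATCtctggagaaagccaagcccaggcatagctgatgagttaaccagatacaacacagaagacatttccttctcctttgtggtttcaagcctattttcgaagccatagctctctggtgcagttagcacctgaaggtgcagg

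**Figure D1:**
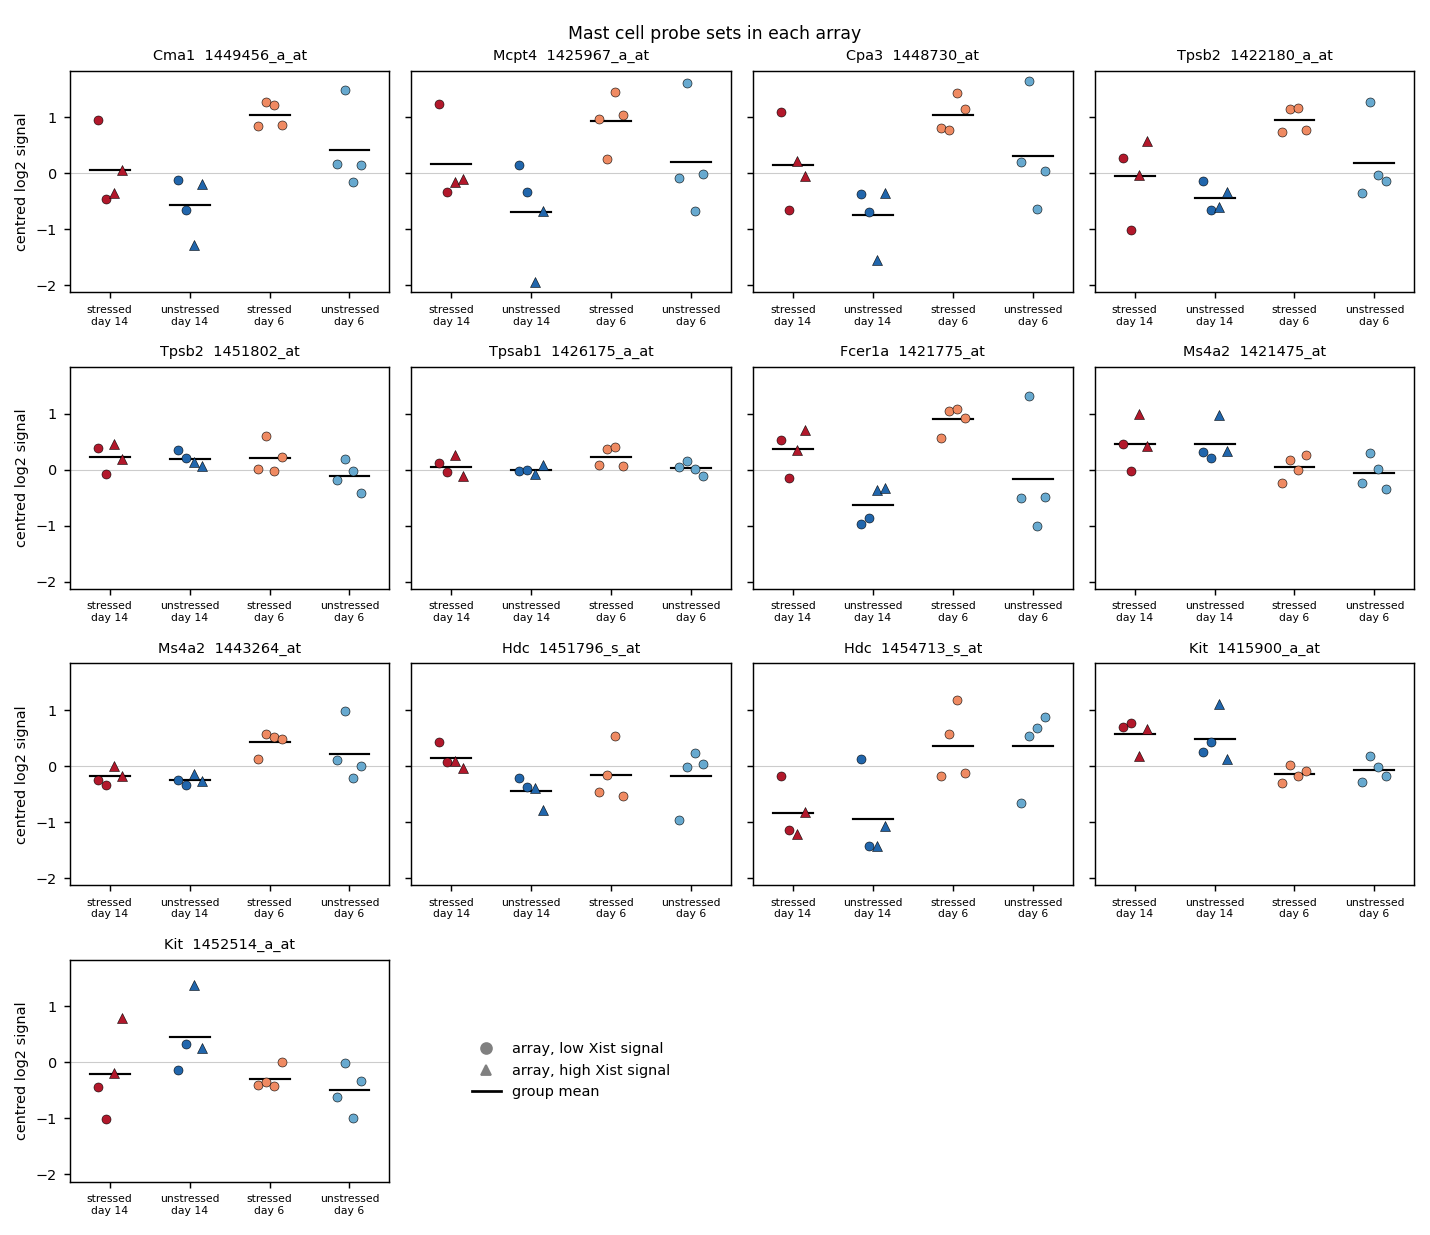
Centred log2 signal (vertical axis) of each of the 13 mast cell probe sets in every array, by group from left to right stressed day 14, unstressed day 14, stressed day 6 and unstressed day 6. Points are arrays, triangles those with high Xist signal, and bars are group means. At day 6 a single unstressed array (replicate 2) stands above the stressed ones for Cma1, Mcpt4, Cpa3, Tpsb2 and Fcer1a, and the other 3 lie lower.

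The granule proteases tended to lie higher in stressed than in unstressed wounds at both days, but the arrays overlapped and no protease passed the test. Cma1 encodes a chymase, a serine protease of the granule, and spans chr14:55941451-55944675. Its probe set read 0.96, -0.46, -0.35 and 0.06 in stressed wounds at day 14, against -0.11, -0.65, -1.28 and -0.19 in unstressed wounds at day 14. The top 2 stressed arrays lay above every unstressed one and the other 2 fell among them, for a log2 difference of 0.61 ± 0.36 (SE; adjusted p = 0.361, limma). At day 6 it read 0.84, 1.27, 1.22 and 0.85 in stressed wounds, against 0.17, 1.49, -0.16 and 0.14 in unstressed wounds. Here all 4 stressed arrays were high and 3 of the 4 unstressed arrays lay below every one of them, while unstressed replicate 2 lay above them all. The difference was 0.63 ± 0.36 (adjusted p = 0.994).

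Mcpt4, the mouse chymase usually set beside human chymase in function, lies near Cma1 on the same chromosome at chr14:56059744-56062310. It read 1.23, -0.33, -0.16 and -0.10 in stressed wounds at day 14, against 0.15, -0.33, -1.95 and -0.67 in unstressed wounds. It read 0.97, 0.25, 1.46 and 1.05 in stressed wounds at day 6, against -0.08, 1.60, -0.68 and -0.01 in unstressed wounds. The groups overlapped at both days, and at day 14 both extremes were single arrays, stressed replicate 1 at the top and unstressed replicate 3 at the bottom. The differences were 0.86 ± 0.50 at day 14 (adjusted p = 0.348, limma) and 0.72 ± 0.50 at day 6 (adjusted p = 1.0).

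Cpa3, the mast cell carboxypeptidase, is at chr3:20215616-20242209. In stressed wounds at day 14 it read 1.10, -0.66, 0.22 and -0.04, against -0.38, -0.69, -1.55 and -0.35 in unstressed wounds. In stressed wounds at day 6 it read 0.81, 0.77, 1.43 and 1.15, against 0.20, 1.65, -0.64 and 0.04 in unstressed wounds. At day 14, 3 of 4 stressed arrays lay above all unstressed ones, and at day 6, 3 of 4 unstressed arrays lay below all stressed ones. The difference was 0.90 ± 0.43 at day 14 (adjusted p = 0.248, limma) and 0.72 ± 0.43 at day 6 (adjusted p = 1.0).

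The 3 genes moved together from array to array. Across all 16 arrays Pearson's r was 0.95 for Cma1 with Cpa3, 0.95 for Mcpt4 with Cpa3 and 0.90 for Cma1 with Mcpt4, and it was 0.91, 0.92 and 0.86 after group means were removed. These are descriptions over arrays of the same wounds, which share tissue, scan and normalization.

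Tryptase was uneven between probe sets. Tpsb2, the beta tryptase gene at chr17:25366308-25368096, had a probe set (1422180_a_at) that followed the chymases and one (1451802_at) that varied less, from -0.41 to 0.60. The first read 0.27, -1.01, -0.04 and 0.58 in stressed wounds at day 14, against -0.14, -0.66, -0.61 and -0.34 in unstressed wounds, which overlapped. It read 0.74, 1.15, 1.17 and 0.78 in stressed wounds at day 6, against -0.36, 1.28, -0.03 and -0.14 in unstressed wounds. The same split appeared as for the chymases, with 3 unstressed arrays below every stressed one and replicate 2 above them all. The difference was 0.39 ± 0.34 at day 14 (adjusted p = 0.570, limma) and 0.77 ± 0.34 at day 6 (adjusted p = 0.894). The second probe set differed by 0.04 ± 0.16 at day 14 and 0.31 ± 0.16 at day 6, and r between the 2 probe sets over 16 arrays was 0.31. Tpsab1, the neighbouring alpha/beta tryptase gene at chr17:25343245-25345562, lay between -0.12 and 0.41 in all 16 arrays. Its difference was 0.06 ± 0.12 at day 14 and 0.21 ± 0.12 at day 6, and neither passed the test (adjusted p = 0.819 and 0.989). The 2 tryptase genes are close relatives, and how far their probes cross-hybridise was not tested.

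The IgE receptor alpha chain had the largest loading difference of the 9 genes at both days with all arrays. At day 14 Mcpt4 or Cpa3 exceeded it in 4 of the 16 fits that left out an array, and with the high Xist arrays alone Mcpt4 differed by 1.18, Cpa3 by 1.04 and Fcer1a by 0.88. Fcer1a, at chr1:173221269-173227232, binds IgE directly. It read 0.53, -0.14, 0.35 and 0.70 in stressed wounds at day 14, against -0.98, -0.86, -0.37 and -0.33 in unstressed wounds. Every stressed array lay above every unstressed one at that day. The difference of 1.0 ± 0.37 (SE; 95% interval 0.22 to 1.78), or 2.0-fold, did not pass the test over all probe sets (adjusted p = 0.123, limma). At day 6 it read 0.56, 1.05, 1.08 and 0.93 in stressed wounds, against -0.50, 1.31, -1.01 and -0.49 in unstressed wounds. The stressed arrays were all high, 3 unstressed arrays were far below them and unstressed replicate 2 was above them all, for a difference of 1.07 ± 0.37 (95% interval 0.29 to 1.86, adjusted p = 0.650).

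Ms4a2, the beta chain at chr19:11615517-11623790 that amplifies the receptor's signal, differed by about its error or less. Its probe set 1443264_at read -0.24, -0.33, 0.01 and -0.17 in stressed wounds at day 14, against -0.24, -0.35, -0.14 and -0.26 in unstressed wounds, with no separation. At day 6 it read 0.12, 0.57, 0.52 and 0.49 in stressed wounds, against 0.11, 0.98, -0.21 and 0.00 in unstressed wounds, and again 3 unstressed arrays lay below every stressed one. The differences were 0.06 ± 0.20 at day 14 and 0.21 ± 0.20 at day 6 (adjusted p = 0.900 and 1.0, limma). The other probe set, 1421475_at, differed by 0.01 ± 0.22 at day 14 and 0.12 ± 0.22 at day 6, and did not follow the first (r = -0.12 over 16 arrays).

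Histamine synthesis was read by Hdc, whose enzyme makes histamine from histidine and which lies at chr2:126593659-126624025. Neutrophils and macrophages can induce it too. Probe set 1451796_s_at read 0.42, 0.08, 0.09 and -0.04 in stressed wounds at day 14, against -0.22, -0.37, -0.39 and -0.79 in unstressed wounds. The groups did not overlap at day 14, and the difference of 0.58 ± 0.26 did not pass the test (adjusted p = 0.204, limma). At day 6 the same probe set read -0.47, -0.17, 0.53 and -0.54 in stressed wounds, against -0.97, -0.02, 0.23 and 0.04 in unstressed wounds, which overlapped throughout (difference 0.02 ± 0.26). Probe set 1454713_s_at differed by 0.11 ± 0.41 at day 14 and by 0.01 ± 0.41 at day 6, so the separation at day 14 was seen in 1 of the 2 probe sets.

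Kit, the receptor for stem cell factor at chr5:75574987-75656722, is shared by mast cells and melanocytes. Probe set 1415900_a_at read 0.69, 0.77, 0.18 and 0.67 in stressed wounds at day 14, against 0.26, 0.42, 1.11 and 0.13 in unstressed wounds. It read -0.30, 0.01, -0.17 and -0.09 in stressed wounds at day 6, against -0.29, 0.17, -0.01 and -0.18 in unstressed wounds. Loading groups overlapped at both days, while in stressed wounds every day 14 array lay above every day 6 array. The loading difference was 0.10 ± 0.19 at day 14 and -0.06 ± 0.19 at day 6. Probe set 1452514_a_at had the lowest estimate of the 13, -0.67 ± 0.35 at day 14 (adjusted p = 0.289, limma), and differed by 0.20 ± 0.35 at day 6.

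**Figure D2:**
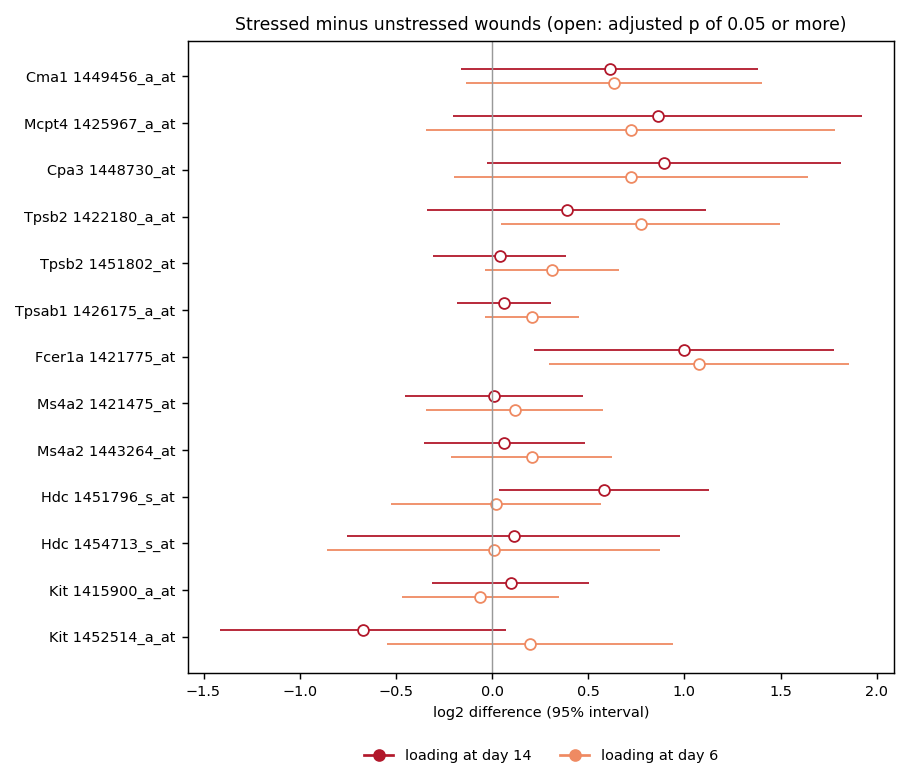
Log2 difference of stressed minus unstressed wounds (horizontal axis, with 95% intervals) for the 13 mast cell probe sets, at day 14 in dark red and at day 6 in orange. All symbols are open because none passed an adjusted p of 0.05, and Fcer1a is farthest to the right at both days.

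Counted together, the mast cell genes leaned toward higher signal under load without a call. At day 14, 0 of the 13 probe sets passed an adjusted p of 0.05 (limma), against 5.9% of all probe sets, and 0 at day 6, against 0.0178%. At an unadjusted threshold of 0.05 in the same fit, 2 of 13 lay below it at day 14 (Fcer1a and Hdc 1451796_s_at), against 21.3% of all probe sets, and 2 at day 6 (Fcer1a and Tpsb2 1422180_a_at), against 5.35%. The estimate was positive for 12 of 13 probe sets at day 14, against 51.8% of all probe sets, and for 12 of 13 at day 6, against 50.5%. Several of these estimates were smaller than their errors. With single arrays left out, the count of positive estimates ranged from 9 to 12 at day 14 and from 10 to 13 at day 6. Probe sets of 1 gene and genes of 1 cell type are not independent, so these counts are not separate observations. The members were also chosen with earlier results of these data known, so the shares beside them are no independent comparison. The median difference was 0.11 at day 14, with a median of 0.01 over all probe sets, and 0.21 at day 6, with 0.00 over all. The stressed arrays all lay above the unstressed ones for 2 of 13 probe sets at day 14, against 5.15% of all probe sets, and for 0 at day 6, against 2.82%.

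At day 6 the call turned on 1 array. Without unstressed replicate 2, Fcer1a was 1.57 ± 0.22 higher in stressed wounds and passed the test (adjusted p = 0.0352, limma). Without it Tpsb2 1422180_a_at differed by 1.14 ± 0.28, Mcpt4 by 1.19 ± 0.46, Cpa3 by 1.17 ± 0.37 and Cma1 by 0.99 ± 0.32. Ms4a2 1443264_at differed by 0.46 ± 0.13, and the adjusted p of these probe sets ran from 0.277 for Tpsb2 to 0.620 for Mcpt4 (limma). All 13 estimates were then positive and 1 passed. Leaving out unstressed replicate 3 moved the estimates the other way, to 0.41 ± 0.43 for Cpa3, 0.43 ± 0.52 for Mcpt4, 0.064 ± 0.20 for Ms4a2 1443264_at and 0.80 ± 0.36 for Fcer1a, and 0 passed. Leaving out unstressed replicate 2 also shrank the spread shared by all groups, so Fcer1a at day 14 passed too, at an unmoved difference of 1.0 (adjusted p = 0.0155, limma). Unstressed replicate 2 also stood apart in markers of some other cells. Its median was 0.61 over 12 macrophage and monocyte markers, against -0.25 to 0.05 in the other unstressed arrays at day 6, and 1.08 over 7 adipocyte markers, against -0.68 to -0.09. It was the lowest of the 4 for 10 keratinocyte markers, at 0.08 against 0.35 to 0.38, and not the highest for neutrophil or endothelial markers. Its part in the result beyond these values was not tested.

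At day 14 the protease estimates also leaned on single arrays. Without stressed replicate 1, Cma1 differed by 0.31, Mcpt4 by 0.51 and Cpa3 by 0.58, and without unstressed replicate 3, Cma1 differed by 0.37 and Mcpt4 by 0.45. Tpsb2 1422180_a_at differed by 0.71 without stressed replicate 2 and by 0.18 without stressed replicate 4.

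No dependence of the loading difference on the day was detected. The difference of the loading effects, day 14 minus day 6, ranged from -0.87 for Kit 1452514_a_at to 0.56 for Hdc 1451796_s_at, and 0 of 13 passed, against 0.00222% of all probe sets. For Fcer1a it was -0.08 ± 0.52 (95% interval -1.18 to 1.03). Because Fcer1a differed alike at both days, the mean of the 2 loading effects was fitted as well, a contrast chosen after its values were seen. Fcer1a then rose 2.05-fold, by 1.04 ± 0.26 on the log2 scale (adjusted p = 0.0412, limma). It was the 1 probe set of 13 that passed, against 3.45% of all probe sets, and 12 estimates were positive, against 51.2%. This call rested narrowly on the full set of arrays: the adjusted p lay between 0.00110 and 0.0881 when each array was left out in turn, and it exceeded 0.05 in 11 of the 16 cases. It was 0.172 when the day 14 arrays with low Xist were left out. Cpa3 differed by 0.81 ± 0.31, Mcpt4 by 0.79 ± 0.35, Cma1 by 0.62 ± 0.26 and Tpsb2 1422180_a_at by 0.58 ± 0.24 on that mean, with adjusted p from 0.162 to 0.243.

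Splitting the day 14 arrays by Xist signal left the estimates of Fcer1a, Cma1, Mcpt4, Cpa3, Tpsab1 and Tpsb2 1422180_a_at positive in both pairs, whereas Tpsb2 1451802_at differed by 0.21 in the pair with high Xist and by -0.13 in the pair with low Xist. In the pair of replicates with high Xist, Fcer1a averaged 0.53 in stressed wounds and -0.35 in unstressed wounds, and in the pair with low Xist it averaged 0.19 in stressed wounds and -0.92 in unstressed wounds. Cpa3 differed by 1.04 in the first pair and 0.75 in the second, and Tpsb2 1422180_a_at by 0.75 and 0.03. Over the 13 probe sets the estimate was positive for 11 with a median of 0.24 in the arrays with high Xist, and for 9 with a median of 0.05 in those with low Xist.

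**Figure D3:**
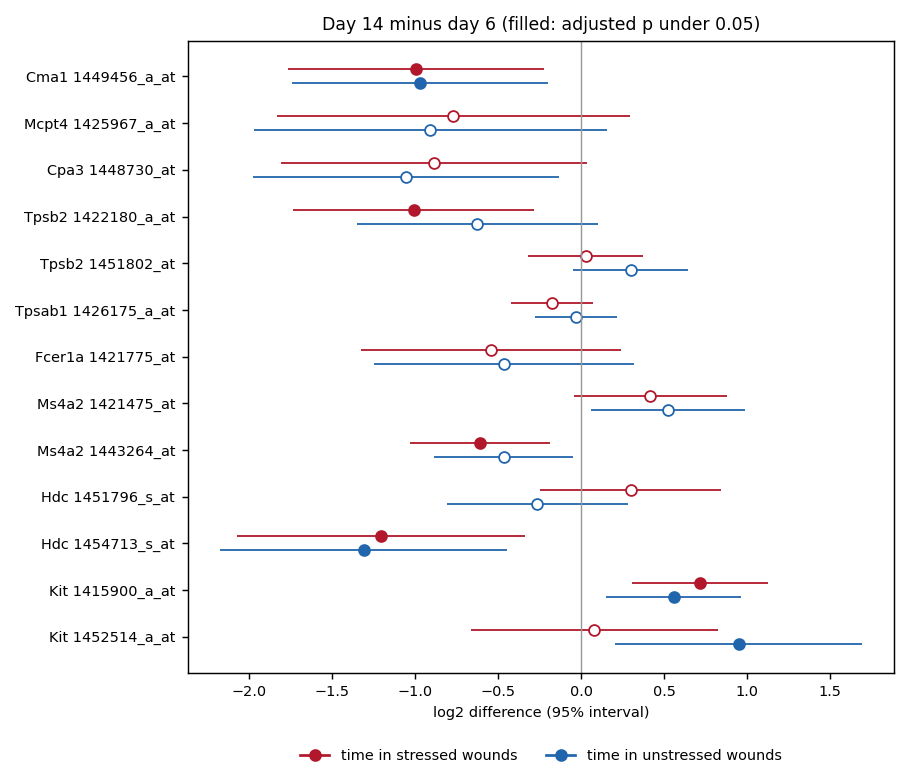
Log2 difference of day 14 minus day 6 (horizontal axis, with 95% intervals) for the 13 mast cell probe sets, in stressed wounds in red and in unstressed wounds in blue. Filled symbols passed an adjusted p of 0.05, and the proteases other than Tpsb2 1451802_at lie left of 0, as does Hdc 1454713_s_at, whereas Kit lies right of it.

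At day 14 relative to day 6, Cma1, Tpsb2, Ms4a2 and Hdc each had a probe set that fell, and Kit rose. In stressed wounds, 5 of 13 probe sets passed at day 14 relative to day 6, against 44.8% of all probe sets, so the share was not above that of the whole array. Of these 1 was higher and 4 lower, against 21.9% and 22.9%. In unstressed wounds, 4 of 13 passed, against 39.6%, and of these 2 were higher and 2 lower, against 19.4% and 20.1%. The day 14 and day 6 arrays did not overlap for 1 probe set that was higher and 3 that were lower in stressed wounds, against 19.2% and 20.3%, and for 0 in unstressed wounds, against 19.1% and 18.8%. The median difference was -0.54 in stressed and -0.47 in unstressed wounds, with 0.01 and 0.02 over all probe sets. Day 14 wounds were older and, in the stressed group, had been loaded longer, and these cannot be told apart. Markers of other cells also moved over time. Among all named genes, each read by 1 probe set, 33.3% fell and 23.3% rose in stressed wounds, and 30.6% fell and 22.0% rose in unstressed wounds. Of 12 macrophage and monocyte markers, 9 fell in stressed wounds and 11 in unstressed wounds, with medians of -0.95 and -2.13. Of 8 neutrophil markers, 2 fell and 1 rose in stressed wounds and 4 fell and 0 rose in unstressed wounds, with medians of -0.32 and -1.94. Their part in the falls of the mast cell genes and of Hdc was not tested. The Xist split also lay along time, since all 4 arrays with high Xist were taken at day 14.

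Cma1 averaged 0.05 ± 0.64 in stressed wounds at day 14 and 1.04 ± 0.23 at day 6 (SD, n = 4 each), and it fell by 0.99 ± 0.36 (SE; adjusted p = 0.0364, limma). In unstressed wounds it averaged -0.56 ± 0.54 at day 14 and 0.41 ± 0.74 at day 6, and fell by 0.97 ± 0.36 (adjusted p = 0.0444). Tpsb2 1422180_a_at fell by 1.01 ± 0.34 in stressed wounds (adjusted p = 0.0253) and differed by -0.62 ± 0.34 in unstressed wounds (adjusted p = 0.157). All 4 stressed arrays of day 14 lay below all 4 of day 6 for Tpsb2. Cpa3 and Mcpt4 had estimates of like size that missed the threshold, -0.88 ± 0.43 and -0.77 ± 0.50 in stressed wounds and -1.06 ± 0.43 and -0.91 ± 0.50 in unstressed wounds.

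Fcer1a differed by -0.54 ± 0.37 in stressed and -0.47 ± 0.37 in unstressed wounds, and did not pass (adjusted p = 0.241 and 0.330, limma). Ms4a2 1443264_at fell by 0.61 ± 0.20 in stressed wounds (adjusted p = 0.0207), and differed by -0.47 ± 0.20 in unstressed wounds (adjusted p = 0.0722). Its other probe set leaned the opposite way, by 0.42 ± 0.22 and 0.52 ± 0.22, neither passing, so the 2 probe sets of this gene disagreed in sign.

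Hdc 1454713_s_at had the largest fall over time. It read -0.19, -1.14, -1.22 and -0.81 in stressed wounds at day 14, against -0.17, 0.57, 1.18 and -0.12 in stressed wounds at day 6. All 4 day 14 arrays lay below all 4 of day 6, and it fell by 1.21 ± 0.41 (adjusted p = 0.0253, limma). In unstressed wounds it read 0.12, -1.43, -1.43 and -1.08 at day 14, against -0.67, 0.53, 0.68 and 0.88 at day 6, where replicate 1 of each day broke the separation, and it fell by 1.31 ± 0.41 (adjusted p = 0.0189). Hdc 1451796_s_at differed by 0.30 ± 0.26 in stressed and -0.26 ± 0.26 in unstressed wounds, so the fall was read by 1 of 2 probe sets.

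Kit was the member that rose. Its probe set 1415900_a_at averaged 0.58 ± 0.27 in stressed wounds at day 14 and -0.14 ± 0.13 at day 6 (SD, n = 4 each), and it rose by 0.72 ± 0.19 (SE; adjusted p = 0.00736, limma). In unstressed wounds it averaged 0.48 ± 0.44 at day 14 and -0.08 ± 0.20 at day 6, and it rose by 0.56 ± 0.19 (adjusted p = 0.0305). Probe set 1452514_a_at rose by 0.95 ± 0.35 in unstressed wounds (adjusted p = 0.0424) and differed by 0.08 ± 0.35 in stressed wounds. Kitl, which encodes stem cell factor, the ligand of Kit, and was picked after its values were seen, also rose, by 0.95 ± 0.13 in stressed and 0.84 ± 0.13 in unstressed wounds (adjusted p = 9.11e-05 and 0.00023). The list of growth and recruitment factors that holds Kitl did not follow it. Of its 19 genes, 6 rose and 9 fell in stressed wounds, against 23.3% and 33.3% of all named genes. In unstressed wounds 4 rose and 10 fell, against 22.0% and 30.6%, and the medians were -0.19 in stressed and -0.87 in unstressed wounds. Melanocytes share Kit, and all 9 of their measured markers had higher estimates at day 14 in both wound types, with medians of 1.16 and 1.05. Of these markers 3 passed in stressed and 4 in unstressed wounds, against 23.3% and 22.0% of all named genes that rose. By array, the melanocyte median ranged from -0.42 to 2.42 in stressed wounds and from -0.67 to 2.26 in unstressed wounds at day 14, against -0.45 to 0.06 in stressed and -0.36 to 0.26 in unstressed wounds at day 6. Their part in the Kit difference was not tested.

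The time calls depended on single arrays. In stressed wounds, 1 of 13 passed without stressed day 6 replicate 3, 2 without stressed day 6 replicate 2 or stressed day 14 replicate 2, 3 without stressed day 14 replicate 3, and 7 without unstressed day 6 replicate 2. Kit 1415900_a_at passed in all 16 of these fits, with adjusted p of at most 0.0249, but not when the day 14 arrays with low Xist were left out (adjusted p = 0.0913, limma). In unstressed wounds, 0 passed without unstressed day 14 replicate 3 or unstressed day 6 replicate 4, 1 without unstressed day 14 replicate 2 or unstressed day 6 replicate 1, and 2 without stressed day 6 replicate 1 or 3. With the Xist class as a block, 3 passed in stressed wounds and 0 in unstressed wounds. The falls of Cma1 and Hdc 1454713_s_at in stressed wounds no longer passed under that block, with adjusted p of 0.116 and 0.0903 (limma), and in unstressed wounds Kit 1415900_a_at missed the threshold at 0.0567. With the high Xist arrays alone at day 14, Tpsb2 1422180_a_at and Ms4a2 1443264_at in stressed wounds no longer passed, with adjusted p of 0.171 and 0.161 (limma). Every one of these estimates kept its sign. After quantile normalization Hdc 1454713_s_at passed in neither wound type and Cma1 passed in stressed wounds alone. Both time comparisons and both loading comparisons use the same 4 groups, so they share arrays.

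**Figure D4:**
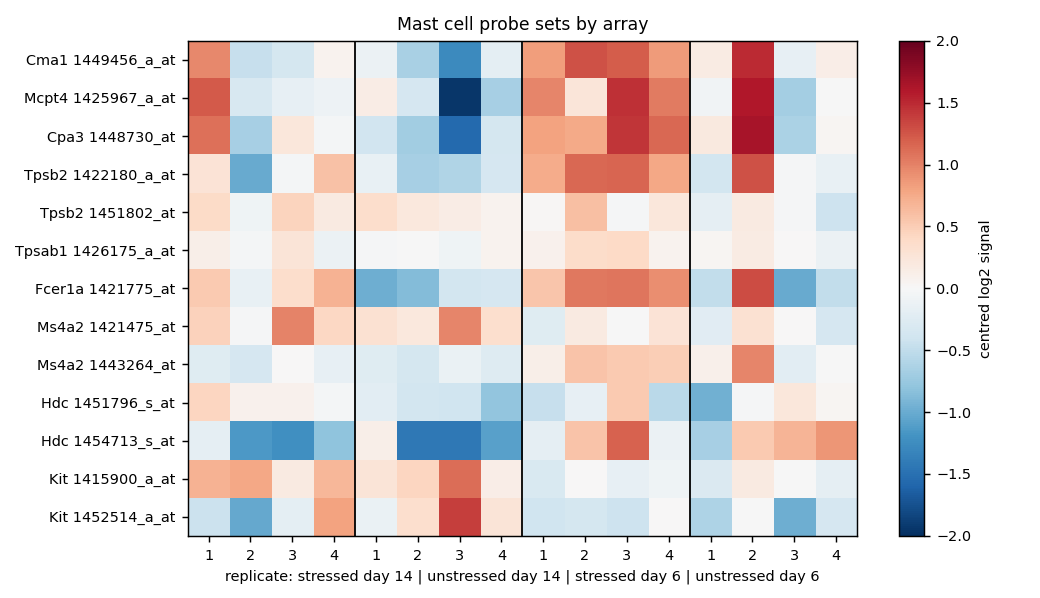
Centred log2 signal (colour, red above and blue below the probe set's centre, limited at 2) of the 13 mast cell probe sets in rows, with the 16 arrays in columns by group and replicate. The rows of Cma1, Mcpt4, Cpa3, Tpsb2 1422180_a_at and Fcer1a share their red columns at day 6, including unstressed replicate 2, and Kit is redder at day 14.

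The genes whose array profile was most like the proteases were sought across all named genes. The profile was the mean of Cma1, Mcpt4, Cpa3 and Tpsb2, each standardised over the 16 arrays, and likeness was Pearson's r over those arrays. Among the other members, Fcer1a ranked 26 of 18189 genes (r = 0.81) and Ms4a2 ranked 69 (r = 0.79), whereas Hdc ranked 914, Tpsab1 1384 and Kit 15348 (r = -0.51). With group means removed, Fcer1a ranked 99 (r = 0.71), Ms4a2 278 (0.64), Hdc 1165 (0.47) and Tpsab1 1536 (0.43). Kit then ranked 11324 with r = -0.12, so most of its opposite course lay between the groups. The 8 most alike genes outside the list were Cep120 (r = 0.91), P4htm (0.87), Clec4b1 (0.87), Gzmc (0.86), Cyb5d2 (0.86), Abca9 (0.86), Niban1 (0.86) and Zfpm2 (0.85). After group means were removed, r was 0.86 for Cep120, 0.84 for Gzmc, a granzyme, and 0.82 for Zfpm2, a GATA cofactor, and from 0.67 to 0.78 for the other 5. Zfpm2 was called higher in stressed wounds at both days, by 0.98 at day 14 (adjusted p = 0.0199, limma) and 1.47 at day 6 (adjusted p = 0.0465). Niban1 was called higher at day 14, by 0.64 (adjusted p = 0.0446), and not at day 6 (0.34, adjusted p = 0.964). The rest of these 8 genes passed for loading at neither day.

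Of 13 further mast cell markers measured, such as Mrgprb1, a receptor of skin mast cells, and Enpp3, 9 had a higher estimate in stressed wounds at day 14 and 11 at day 6, with medians of 0.06 and 0.26 and 0 called at either day. Among all 18193 named genes, each read by 1 probe set in the same fit, 3.58% rose and 3.91% fell in stressed wounds at day 14, and 0.044% passed in either direction at day 6. The counts of the gene lists that follow are read against these shares. Of 18 granule and mediator genes, 1 rose at day 14: Srgn, which encodes the serglycin core of granules and is also made by other leukocytes, by 1.27 ± 0.25 (adjusted p = 0.00939, limma). The next by p were Ctsg at 0.41, Alox5ap at 0.92 and Ndst2 at 0.35, which did not pass. At day 6 Srgn differed by 0.15 ± 0.25. Over time, 7 of the 18 fell and 2 rose in stressed wounds at day 14 relative to day 6, and 9 fell and 1 rose in unstressed wounds. Of all named genes, 33.3% fell and 23.3% rose in stressed wounds, and 30.6% fell and 22.0% rose in unstressed wounds.

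Of 20 measured genes of the signalling chain below the IgE receptor, 3 rose and 2 fell in stressed wounds at day 14 and 0 passed at day 6. Fcer1g, the gamma chain shared with Fc receptors of macrophages, rose by 1.35 ± 0.26 (adjusted p = 0.00797, limma), and Lcp2, a signalling adaptor of several leukocytes, rose by 0.94 ± 0.22 (adjusted p = 0.0226). Orai1, a calcium channel, fell by 0.65 ± 0.16 and Nfatc2, a transcription factor driven by calcium, fell by 0.83 ± 0.20 (adjusted p = 0.0288 and 0.0270). At day 14 relative to day 6, 16 of the 20 fell and 2 rose in stressed wounds, and 15 fell and 1 rose in unstressed wounds, beside the same shares of all named genes.

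Of 19 growth and recruitment factors and receptors, 3 rose in stressed wounds at day 14 and 0 passed at day 6. Il33, an alarmin that mast cells sense through Il1rl1, rose by 2.87 ± 0.39 in stressed wounds at day 14 (adjusted p = 0.00137, limma) and differed by 1.17 ± 0.39 at day 6 (adjusted p = 0.639). Itga4, an integrin chain used in homing, rose by 0.87 ± 0.19 and Crlf2, a receptor chain for thymic stromal lymphopoietin, by 0.84 ± 0.22 at day 14 (adjusted p = 0.0168 and 0.0395). Cxcr2 differed by 0.63 ± 0.18 and did not pass. Of 14 transcription factors, Spi1 (by 1.42 ± 0.25) and Runx1 (by 1.39 ± 0.36) rose at day 14 (adjusted p = 0.00618 and 0.0342), both shared with other blood cells, and Ikzf1 and Lmo2 differed by 0.99 and 0.89 and did not pass. Of 12 genes that receive or clear histamine and other mediators 0 passed at day 14 or day 6, and the 4 with the smallest p at day 14 (the receptor genes Cysltr1, Ptgdr2 and Ptgdr, and Aoc1, whose enzyme degrades histamine) differed by 0.12 to 0.51.

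Markers of other cells were counted beside the mast cell genes at day 14. Of 12 macrophage and monocyte markers, 10 rose, with a median of 1.47, and of 10 fibroblast markers 5 rose, with a median of 1.45. Of 11 skeletal muscle markers 7 fell and of 7 adipocyte markers 6 fell, with medians of -2.89 and -2.76. Of 8 neutrophil markers, 2 rose and 1 fell, with a median of 0.97, and of 10 endothelial markers 0 passed, with a median of 0.74. For macrophage, fibroblast, skeletal muscle and adipocyte markers, the day 6 medians were 0.36, 0.59, -0.03 and 0.19, and for neutrophil and endothelial markers -0.14 and 0.16, and 0 of all these markers passed. Of 6 basophil markers, cells that also carry the IgE receptor, 0 passed at either day, with medians of 0.13 and 0.28. How far these shifts in tissue makeup bear on the mast cell values was not tested.

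**Figure D5:**
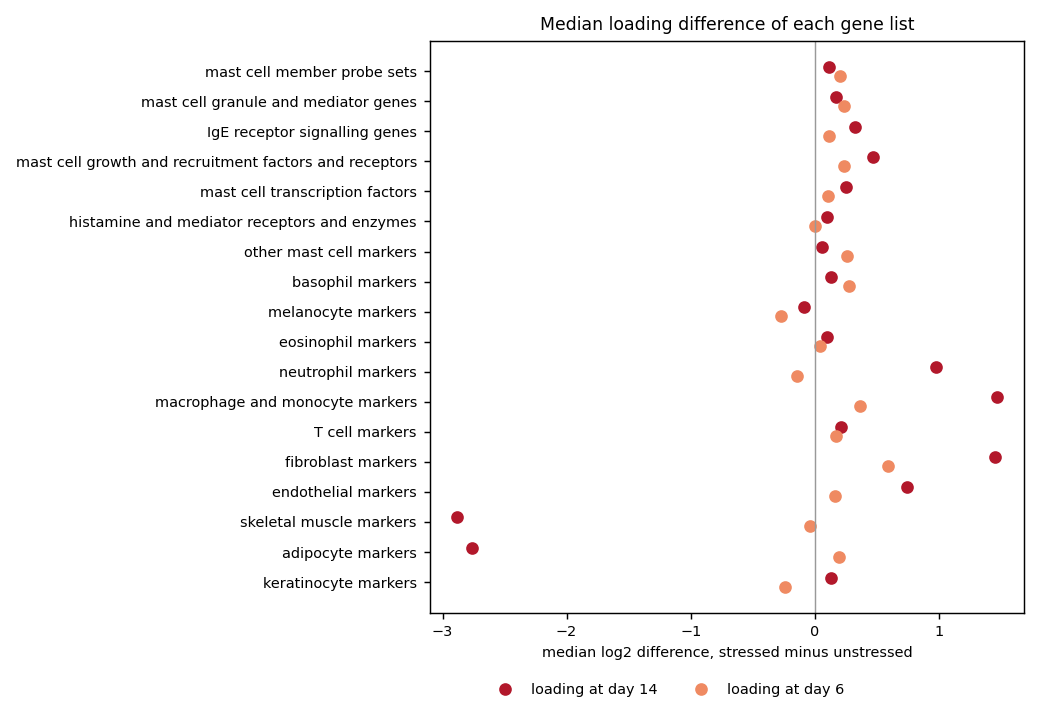
Median log2 difference, stressed minus unstressed (horizontal axis), of the mast cell probe sets and of each gene list in rows, at day 14 in dark red and at day 6 in orange. The mast cell medians, 0.11 and 0.21, are over all 13 probe sets, whereas each list holds 1 probe set per gene, so they are unlike measures. With 1 probe set per gene, the middle member was Tpsb2 at 0.39 at day 14 and Cma1 at 0.63 at day 6. Macrophage, fibroblast, skeletal muscle and adipocyte medians lie far from 0 at day 14.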

How the data were processed

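16 arrays of mouse wound tissue were used in 4 labelled groups. Per the series design text, intensity files were processed by the authors with GeneSpring GX 11.0. The deposited values are log2-scale signals centred per probe set. The log base was read as log2, and natural logs would make each difference larger. How background, summarization and normalization were handled is not given in the sources used here. Of 45101 rows, 64 control probe sets were left out. Symbols came from the platform annotation (34945 probe sets with 1 symbol, 932 with several, 9160 with none). No filter on signal was applied. The number of arrays limits the precision.

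With limma 3.58.1 in R 4.3.3, all 16 arrays were fitted by group, and loading at each day, their difference and time in each wound type were tested two-sided, with Benjamini-Hochberg adjustment over 45037 probe sets and a threshold of 0.05. The mean loading effect was added after seeing the data. The fit was tested on simulated data, with noise drawn for each probe set on its own, unlike arrays that share tissue and normalization. Of probe sets shifted by 1 log2 unit, 75% passed for loading at day 6 and 69% at day 14. For the difference of the loading effects 30% passed, so a true difference of that size can be missed. Errors of differences are the fit's standard errors. For listed genes outside the members, and for every gene in the likeness ranking, the probe set with the largest interquartile range was used. The text names every member probe set and up to 4 genes per pathway list with the smallest p for loading at day 14. The members and lists were chosen with earlier results of these data known. Settings tried instead were other array selections, quantile normalization, array weights, replicate and Xist blocks, other probe set selections and each array left out. Same-numbered arrays of the loading groups correlated (deviations from group means) at 0.15 to 0.26 at day 14 and at -0.41 to -0.01 at day 6, so the day 14 arrays alone met the mark of 0.1 set for pairing, with no source for it in the labels. Arrays of different number but the same Xist class correlated at 0.04 to 0.20 at day 14, so a pairing by number cannot be told apart from the Xist split.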

Additional observations from a re-analysis of the deposited data

Results flagged for a closer look

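In 4 of 52 sets of 4 arrays, 1 array stood far from the other 3 (a gap test that chance meets in about 1 in 20 sets). Mcpt4 was high in stressed day 14 replicate 1, at 1.23, where the other 3 lay between -0.33 and -0.10. Kit 1415900_a_at was low in stressed day 14 replicate 3, at 0.18, where the others lay between 0.67 and 0.77. Ms4a2 1421475_at was high in unstressed day 14 replicate 3, at 0.98, where the others lay between 0.20 and 0.33. Kit 1452514_a_at was high in stressed day 6 replicate 4, at 0.011, where the others lay between -0.42 and -0.35.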

How the results depend on the processing

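Of the 13 probe sets, 0 passed for loading at day 6 under every planned setting that kept all arrays, and 0 at day 14 except 1 (Fcer1a) with array weights. At day 6 quantile normalization gave 1.68 ± 0.43 for Fcer1a and 0.98 ± 0.33 for Cma1 (adjusted p = 0.0698 and 0.170, limma). It moved Kit 1415900_a_at the other way, to -0.12, and Hdc 1451796_s_at to -0.089. Leaving out each array gave 0 to 1 at day 6, 0 to 1 at day 14, 1 to 7 for time in stressed wounds, 0 to 5 for time in unstressed wounds and 0 to 2 for the mean loading effect. Time in stressed wounds gave 5, but 3 with the Xist class as a block, 3 with the low Xist arrays of day 14 only and 2 with the high Xist ones only. Time in unstressed wounds gave 4, but 2 with only the arrays compared, 2 after quantile normalization, 7 with array weights, 0 with the Xist block, 1 with the low Xist arrays only and 6 with the high Xist ones only. The mean loading effect gave 1, but 3 with array weights and 0 with the high Xist arrays only. Fewer arrays entered the restricted fits, and the cause of the other shifts was not tested.

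With the replicate block, 0 passed for loading at day 6, 0 at day 14, 0 for the difference and 1 for the mean loading effect, so the block changed no member call there. For time it cannot be estimated, since the numbers do not pair days.

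Signs turned for estimates near 0. Quantile normalization gave -0.089 for Hdc 1451796_s_at at day 6, -0.0069 for Ms4a2 1421475_at at day 14, -0.087 for Tpsb2 1451802_at over time in stressed wounds and -0.026 for Kit 1415900_a_at in the mean loading effect. For Kit 1452514_a_at over time in stressed wounds, array weights gave -0.036, the Xist block -0.36 and low Xist arrays -0.44. Low Xist arrays at day 14 gave -0.033 for Ms4a2 1421475_at, -0.13 for Tpsb2 1451802_at and -0.0085 for Hdc 1454713_s_at, and -0.055 for Tpsb2 1451802_at over time in stressed wounds. High Xist arrays gave -0.19 for Kit 1415900_a_at at day 14 and -0.13 in the mean loading effect.

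With single arrays left out, loading at day 14 kept its sign but ranged from 0.31 to 0.78 for Cma1, 0.45 to 1.14 for Mcpt4, 0.58 to 1.17 for Cpa3 and 0.18 to 0.71 for Tpsb2 1422180_a_at. It ranged from -0.021 to 0.31 for Kit 1415900_a_at, -0.17 to 0.18 for Ms4a2 1421475_at, -0.0073 to 0.12 for Tpsab1, -0.032 to 0.15 for Tpsb2 1451802_at and -0.10 to 0.47 for Hdc 1454713_s_at. At day 6 it ranged from -0.13 to 0.022 for Kit 1415900_a_at, -0.24 to 0.16 for Hdc 1451796_s_at and -0.33 to 0.19 for Hdc 1454713_s_at. The mean loading effect ranged from -0.041 to 0.12 for Kit 1415900_a_at, -0.024 to 0.15 for Ms4a2 1421475_at and -0.11 to 0.24 for Hdc 1454713_s_at. Time in stressed wounds ranged from -0.051 to 0.16 for Tpsb2 1451802_at and -0.26 to 0.35 for Kit 1452514_a_at, and time in unstressed wounds from -0.74 to 0.028 for Fcer1a and -0.078 to 0.015 for Tpsab1.

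Over all probe sets, loading at day 6 called 8, but 444 after quantile normalization, 497 with array weights and 1 with the replicate block. Loading at day 14 called 2656, but 97 when day 6 was left out of the fit, 339 once quantile normalized, 5743 under array weights, 4393 with the Xist block, 7595 with low Xist and 838 with high Xist arrays, and 1483 of 18193 with 1 probe set per gene. The difference of the effects called 1, but 2 once quantile normalized, 734 with array weights, 11 with the replicate block, 70 with the Xist block, 3131 with low Xist and 85 with high Xist arrays, 7 with 1 probe set per gene and 13 with the less variable probe sets left out. With 1 probe set per gene, fewer were tested and time called 10604 in stressed wounds, against 20181, and 10005 in unstressed wounds, against 17819. The mean loading effect called 1555, but 5789 with array weights, 2952 with the Xist block and 6684 with low Xist arrays. With single arrays left out, loading called 944 to 5254 at day 14 and 0 to 11 at day 6, the difference 1 to 353 and the mean loading effect 660 to 3418. The 4 arrays per group limit all of these.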
